A study of Mus musculus with 6 samples.

Results

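The NF-kB family was described by the mRNA levels of 10 genes: the 5 subunits Nfkb1, Nfkb2, Rela, Relb and Rel, the classical inhibitors Nfkbia, Nfkbib and Nfkbie, and the atypical IkB genes Nfkbiz and Bcl3. They were chosen by name and matched exactly to the gene symbols of the deposited tables, where all 10 were found among 24346 symbols. Mouse retina of genotype Unc119-/- (knockout, 3 libraries) was compared with retina of genotype Unc119+/+ (wild type, 3 libraries). The labels give no strain, age, sex, allele, treatment or batch, and do not say that each library came from its own animal, so the p-values measure the spread between these libraries, which may be technical. UNC119 carries lipid-modified proteins such as rod transducin within photoreceptors, and the study's title names NF-kB among the inflammatory pathways of its mutant retina.

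NF-kB proteins are transcription factors that bind DNA as pairs of subunits. In resting cells the classical inhibitors IkBalpha (Nfkbia), IkBbeta (Nfkbib) and IkBepsilon (Nfkbie) hold RelA, c-Rel and p50 in the cytoplasm, and a signal through the IKK kinases has them degraded. RelB pairs with p52, which is cut from the Nfkb2 product p100 in a slower, non-canonical branch. BCL-3 and IkBzeta (Nfkbiz) act in the nucleus on p50 or p52. Several family genes, Nfkbia above all, are themselves induced by NF-kB. In the injured retina the pathway is best known from Müller glia and microglia. Activation is set mainly by protein degradation and nuclear entry, which mRNA levels do not measure.

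Values are FPKM, fragments per kilobase of transcript scaled for library size in a way not given, so that levels of different genes can be set side by side. Genotypes were compared with limma on log2(FPKM + 1) over the 14176 genes with a mean of at least 0.5 FPKM, and a gene was called at an adjusted p under 0.05. All 10 family members were tested, but Bcl3 passed the filter through its knockout libraries, since its wild-type mean was 0.155 FPKM. Unc119 itself had 510, 460 and 449 FPKM in knockout replicates 1, 2 and 3, against 1191, 1187 and 1206 FPKM in wild-type replicates 1, 2 and 3. Transcript of the locus was thus reduced and not absent in the libraries labelled knockout. Depth in fragments is unknown. Relative to wild-type replicate 2, depth was 0.931 to 0.964 in the knockout libraries and 0.763 and 0.805 in wild-type replicates 1 and 3. Markers of photoreceptors were abundant in every library, with a sum of 21266 to 22468 FPKM in the knockout and 20870 to 22799 FPKM in the wild type over 16 genes. Knockout replicate 3 stood apart by its lens RNA, with 11973 FPKM over 16 lens genes, against 283 and 699 FPKM in knockout replicates 1 and 2 and 0.704 to 824 FPKM in the wild-type libraries. Xist and Y-linked genes marked knockout replicate 1 and wild-type replicates 1 and 2 as male, and the other 3 libraries as female.

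No family member passed the test in either direction, beside 0.233% of all genes tested that were called (29 higher, 0.205%, and 4 lower, 0.0282%, in the knockout). At an unadjusted p under 0.05, Bcl3 and Nfkb2 were higher in the knockout, beside 5.19% of all genes that were higher at that level, and no member was lower, beside 3.81%. The log2 changes of the 10 members were above 0 for 5 and below 0 for 5, with a median of 0.03, beside 49.3% above 0 and a median of -0.00174 over all genes. In 3 members the genotypes did not overlap, Bcl3 and Nfkb2 with each knockout library higher and Rel with each knockout library lower. Of all genes tested, 15.9% did not overlap, 7.83% with the knockout higher and 8.04% with it lower. Bcl3 was tested only because its knockout values were high, so its place in these counts is a description. Without Bcl3, Nfkb2 was the only member higher by either measure. The abundant subunits and classical inhibitors, which carry most of the family's mRNA, had overlapping genotypes.

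**Figure D1:**
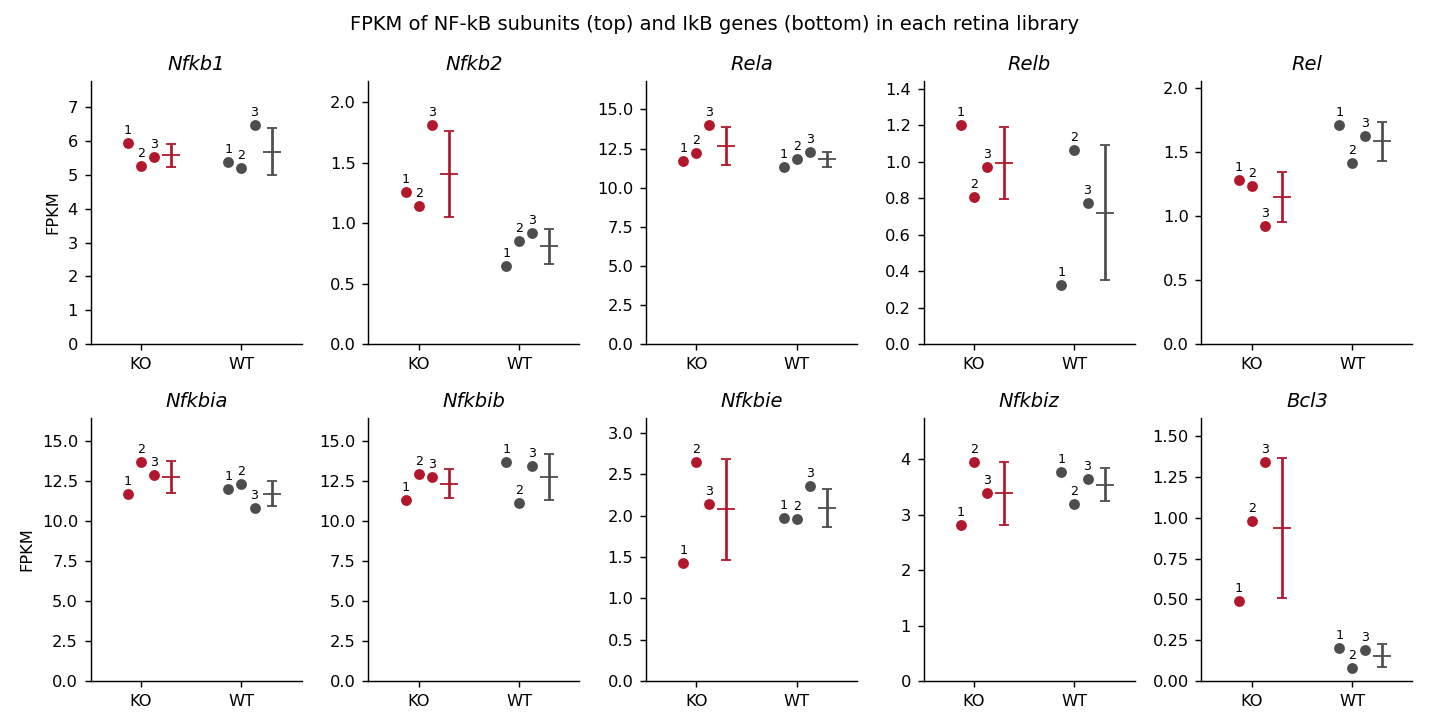
FPKM of each family member in each library (points, numbered by replicate) with the mean and SD of each genotype (bars beside the points, n = 3), subunits in the top row and IkB genes in the bottom row, each panel with its own axis starting at 0. Bcl3 and Nfkb2 lie higher in all 3 knockout libraries and Rel lies lower in all 3, while the other 7 members overlap.

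By level, the family fell into an abundant group and a scarce one. Nfkbib, Rela and Nfkbia averaged 12.6, 12.2 and 12.2 FPKM over the 6 libraries, and their ranges overlapped, so their order among each other cannot be given. Nfkb1 followed at 5.63 FPKM, Nfkbiz at 3.47 FPKM and Nfkbie at 2.08 FPKM, each below the one before it in all 6 libraries and with separate ranges. Below these came Rel at 1.36 FPKM, Nfkb2 at 1.11 FPKM, Relb at 0.857 FPKM and Bcl3 at 0.547 FPKM. Each neighbouring pair from Nfkbie down to Bcl3 overlapped in range over the 6 libraries. All 10 genes together made up 0.0127% to 0.0141% of the FPKM sum of a knockout library and 0.0127% to 0.0136% of that of a wild-type library. In bulk retina, fewer cells of a type and less RNA per cell cannot be told apart for any of these genes.

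The canonical subunits came first. Rela encodes RelA (p65), the subunit with the strongest activation domain in most cells (ENSMUSG00000024927.8, GRCm38 chromosome 19, 5637483 to 5648130, plus strand). Rela had 11.7, 12.2 and 14.0 FPKM in knockout replicates 1, 2 and 3, against 11.3, 11.8 and 12.3 FPKM in wild-type replicates 1, 2 and 3. The highest value was in knockout replicate 3 and the other knockout libraries lay within the wild-type range. The log2 change of Rela was 0.09 with a 95% interval of -0.10 to 0.28 (limma adjusted p = 0.755), and 0.02 without knockout replicate 3 (limma adjusted p = 0.971). Nfkb1 encodes p105 and the p50 subunit made from it (ENSMUSG00000028163.17, chromosome 3, 135584655 to 135691547, minus strand). Nfkb1 had 5.95, 5.26 and 5.54 FPKM in the knockout libraries, against 5.37, 5.21 and 6.48 FPKM in the wild-type libraries. The knockout values lay inside the wild-type range, and the log2 change was -0.02 with an interval of -0.25 to 0.22 (limma adjusted p = 0.968). Both genes, the most abundant subunits, thus gave narrow intervals that include 0.

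Rel, which encodes c-Rel, a subunit best known from lymphocytes and other immune cells, was the member with the lower knockout values (ENSMUSG00000020275.9, chromosome 11, 23736847 to 23770970, minus strand). Rel had 1.28, 1.23 and 0.922 FPKM in knockout replicates 1, 2 and 3, against 1.71, 1.41 and 1.62 FPKM in wild-type replicates 1, 2 and 3. The genotypes did not overlap, and knockout replicate 3 was the lowest library. The means were 1.15 ± 0.197 FPKM in the knockout and 1.58 ± 0.155 FPKM in the wild type (SD, n = 3 each). On the log2 scale the change was -0.27 with an interval of -0.57 to 0.04 and an unadjusted p of 0.0773 (limma adjusted p = 0.591), so Rel did not pass. It was -0.44 with a pseudocount of 0.1 (limma adjusted p = 0.601) and -0.16 with lens RNA as a covariate, below called the lens term (limma adjusted p = 0.983).

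The non-canonical pair was scarcer. Nfkb2 encodes p100, an inhibitor in its full form and the source of p52 (ENSMUSG00000025225.15, chromosome 19, 46304320 to 46312385, plus strand). Nfkb2 had 1.26, 1.14 and 1.81 FPKM in knockout replicates 1, 2 and 3, against 0.647, 0.853 and 0.922 FPKM in wild-type replicates 1, 2 and 3. Every knockout library was above every wild-type library, and knockout replicate 3 was the highest. The mean was 1.40 ± 0.356 FPKM in the knockout and 0.807 ± 0.143 FPKM in the wild type (SD, n = 3 each), a ratio of 1.74. The log2 change was 0.41 (SE 0.15, interval 0.05 to 0.76) with an unadjusted p of 0.0313 and a limma adjusted p of 0.515. Without knockout replicate 3 it was 0.29 (limma adjusted p = 0.708), and with a pseudocount of 0.1 it was 0.72 (limma adjusted p = 0.514). Nfkb2 shares 299 bases with Psd on the opposite strand, a gene of 78.1 to 91.9 FPKM in the knockout and 77.1 to 84.1 FPKM in the wild type. With the strand setting of counting not given in the sources used here, reads of that stretch cannot be told apart, nor those of 1292 bases shared with a noncoding gene on that strand.

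Relb encodes RelB, which pairs with p52 (ENSMUSG00000002983.17, chromosome 7, 19606217 to 19629438, minus strand). Relb had 1.202, 0.805 and 0.972 FPKM in the knockout libraries, against 0.327, 1.06 and 0.776 FPKM in the wild-type libraries. The genotypes overlapped, and wild-type replicate 1 was far below the rest. The log2 change was 0.23 with an interval of -0.22 to 0.68 (limma adjusted p = 0.739), and it was 0.05 without wild-type replicate 1 (limma adjusted p = 0.955) and 0.51 with a pseudocount of 0.1 (limma adjusted p = 0.727). It was 0.37 without wild-type replicate 2 (limma adjusted p = 0.598), so the estimate for Relb moved widely with single wild-type libraries.

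Bcl3 had the largest log2 change of the family. It encodes BCL-3, a nuclear IkB protein that binds p50 and p52 pairs and can activate or repress their targets (ENSMUSG00000053175.17, chromosome 7, 19808462 to 19822770, minus strand). Bcl3 had 0.489, 0.982 and 1.34 FPKM in knockout replicates 1, 2 and 3, against 0.200, 0.0762 and 0.189 FPKM in wild-type replicates 1, 2 and 3. Every knockout library was above every wild-type library, by a wide margin in knockout replicates 2 and 3. The mean was 0.938 ± 0.429 FPKM in the knockout and 0.155 ± 0.0685 FPKM in the wild type (SD, n = 3 each), a ratio of 6.05. The log2 change was 0.72 (SE 0.20, interval 0.27 to 1.18) with an unadjusted p of 0.00642 and a limma adjusted p of 0.369, so it did not pass over all genes. Bcl3 ranked 246th of the 14176 genes by p. Since the gene is scarce, the size depends on the pseudocount: it was 1.09 with 0.5 (limma adjusted p = 0.336) and 1.97 with 0.1 (limma adjusted p = 0.333). Bcl3 overlaps the antisense genes Gm16175 (2264 bases) and Gm16174 (2073 bases), not analysed here, and reads of either strand there cannot be told apart. Relb and Bcl3 lie on the same chromosome and strand, 179023 bases apart with 10 protein-coding genes between them.

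Bcl3 and Relb were so scarce that their values fell on steps. Multiplied by relative depth, all 6 values of Bcl3 were whole multiples of a single step, to within 0.00018 of a step. They were 6, 12 and 17 steps in knockout replicates 1, 2 and 3 and 2, 1 and 2 steps in wild-type replicates 1, 2 and 3. Relb lay at 18, 12 and 15 steps in the knockout libraries and 4, 17 and 10 steps in the wild-type libraries, to within 0.0171 of a step. If a step is 1 fragment, Bcl3 rested on 35 fragments in the knockout and 5 in the wild type, and Relb on 45 in the knockout and 31 in the wild type. The ratio of these sums per unit of depth was 6.35 for Bcl3, with an exact (Clopper-Pearson) 95% interval of 2.48 to 20.8, and 1.32 for Relb, with an interval of 0.815 to 2.15. These intervals cover counting error within these libraries only and not the spread between replicates. The search allowed at most 10 steps in the lowest library and capped those in the highest. It could therefore not find steps in abundant members, and among the other 8 it found none.

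**Figure D2:**
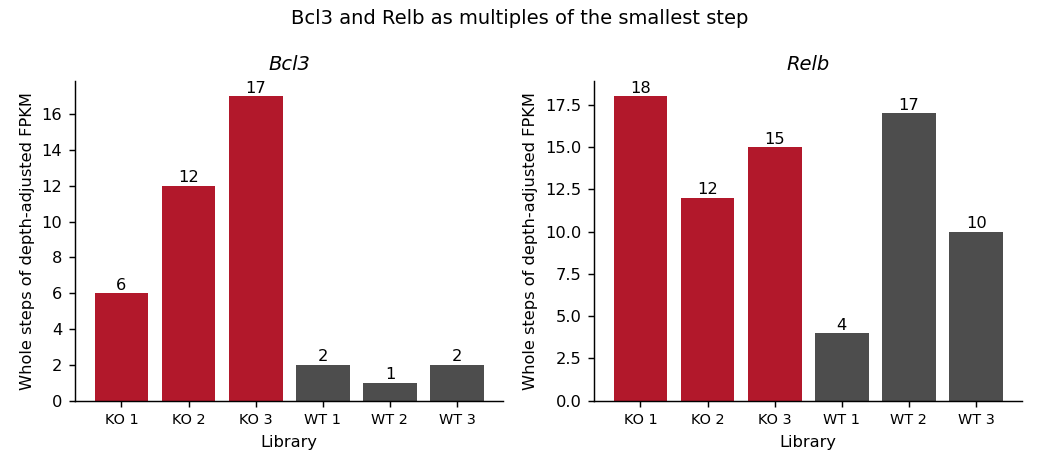
FPKM times relative depth, in whole multiples of the smallest step (y axis, from 0), for Bcl3 (left) and Relb (right) in each library (x axis, knockout in red, wild type in grey). Bcl3 stands at 6 to 17 steps in the knockout and 1 or 2 in the wild type, while Relb runs from 12 to 18 in the knockout and 4 to 17 in the wild type.

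The classical inhibitors did not separate the genotypes. Nfkbia, the feedback inhibitor that NF-kB induces (ENSMUSG00000021025.8, chromosome 12, 55489410 to 55492647, minus strand), had 11.7, 13.7 and 12.8 FPKM in knockout replicates 1, 2 and 3, against 11.96, 12.3 and 10.8 FPKM in wild-type replicates 1, 2 and 3. Knockout replicates 2 and 3 were above every wild-type library and knockout replicate 1 was not. The log2 change was 0.12 with an interval of -0.07 to 0.31 (limma adjusted p = 0.698), and it was 0.06 without wild-type replicate 3 and 0.07 without knockout replicate 2. Nfkbib, an inhibitor that is degraded more slowly and not part of that rapid feedback (ENSMUSG00000030595.15, chromosome 7, 28758251 to 28767512, minus strand), had 11.3, 13.0 and 12.7 FPKM in the knockout libraries, against 13.7, 11.1 and 13.4 FPKM in the wild-type libraries. All knockout values lay inside the wild-type range, with a log2 change of -0.04 and an interval of -0.26 to 0.18 (limma adjusted p = 0.915). Nfkbib shares 718 bases with Ccer2, not analysed here, and 778 bases with Sirt2 on the opposite strand, a gene of 49.5 to 57.0 FPKM in the knockout and 56.3 to 61.0 FPKM in the wild type.

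Nfkbie (ENSMUSG00000023947.8, chromosome 17, 45555703 to 45563169, plus strand) varied most among the classical inhibitors, with 1.43, 2.65 and 2.14 FPKM in the knockout libraries, against 1.97, 1.95 and 2.35 FPKM in the wild-type libraries. The knockout held both the lowest and the highest library. The log2 change was -0.03 with an interval of -0.41 to 0.36 (limma adjusted p = 0.974). Nfkbiz encodes IkBzeta, a nuclear cofactor that acute-phase and antimicrobial genes need in immune cells (ENSMUSG00000035356.17, chromosome 16, 55811375 to 55838899, minus strand). Nfkbiz had 2.82, 3.96 and 3.40 FPKM in the knockout libraries, against 3.77, 3.20 and 3.65 FPKM in the wild-type libraries, again with the knockout spanning the wild-type values. Its log2 change was -0.05 with an interval of -0.34 to 0.23 (limma adjusted p = 0.915). Nfkbie and Nfkbiz were both lowest in knockout replicate 1 and highest in knockout replicate 2.

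**Figure D3:**
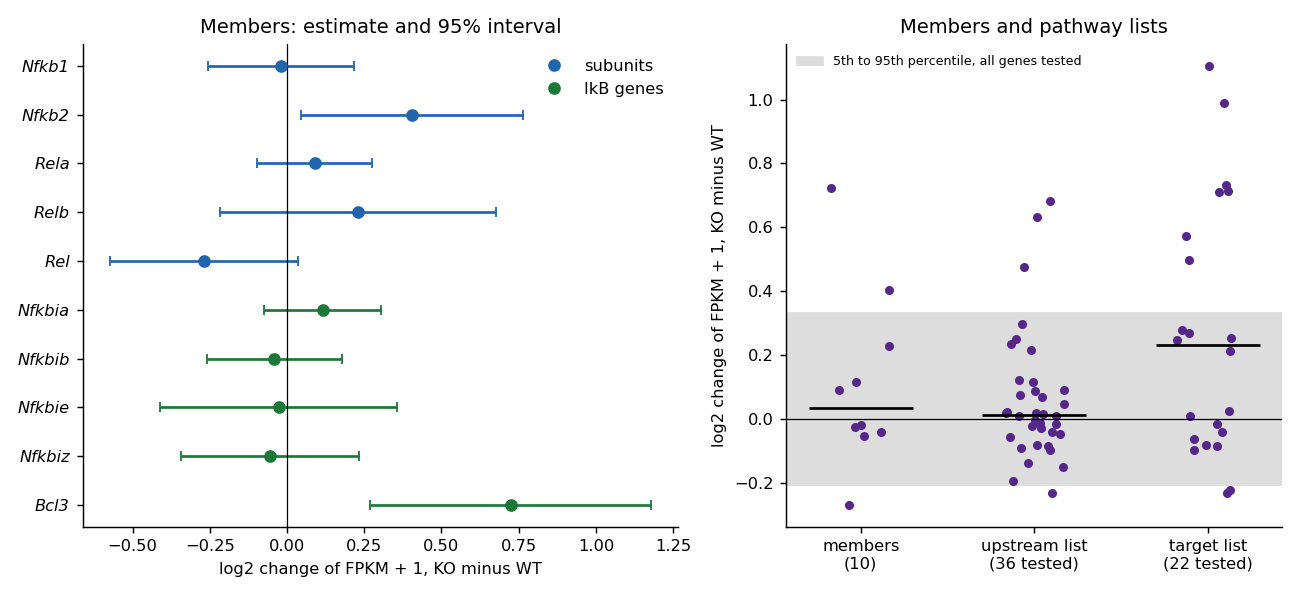
Left, log2 change of FPKM + 1 (knockout minus wild type, x axis) of each family member with its limma 95% interval; right, the same change for the 10 members and for the tested genes of the upstream and target lists (points, with the median as a line) against the 5th to 95th percentile of all genes tested (grey, -0.21 to 0.33). The intervals of Bcl3 and Nfkb2 lie above 0 before adjustment over all genes, and those of the other 8 members include 0.

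Promoter sequences are shown for the 3 members whose genotypes did not overlap and for Nfkbia, the best known feedback gene of the family. They run from 250 bases before to 50 bases after the RefSeq gene start (GRCm38.p6), 5′ to 3′ on the gene's strand. Capitals mark GGG and CC with any 5 bases between them, a loose form of the kB site, and TTCNNNGAA, the form of a STAT site, each searched on both strands. The windows are chr7:19822706-19823005 (minus) for Bcl3, chr19:46304487-46304786 (plus, the most upstream of 3 starts) for Nfkb2, chr11:23770920-23771219 (minus) for Rel and chr12:55492598-55492897 (minus) for Nfkbia.
Bcl3: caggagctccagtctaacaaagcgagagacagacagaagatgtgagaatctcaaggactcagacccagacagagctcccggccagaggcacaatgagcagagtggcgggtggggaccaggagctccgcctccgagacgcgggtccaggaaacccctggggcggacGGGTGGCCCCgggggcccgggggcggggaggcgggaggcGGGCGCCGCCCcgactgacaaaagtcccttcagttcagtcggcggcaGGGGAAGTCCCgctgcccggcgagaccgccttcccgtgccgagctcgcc
Nfkb2: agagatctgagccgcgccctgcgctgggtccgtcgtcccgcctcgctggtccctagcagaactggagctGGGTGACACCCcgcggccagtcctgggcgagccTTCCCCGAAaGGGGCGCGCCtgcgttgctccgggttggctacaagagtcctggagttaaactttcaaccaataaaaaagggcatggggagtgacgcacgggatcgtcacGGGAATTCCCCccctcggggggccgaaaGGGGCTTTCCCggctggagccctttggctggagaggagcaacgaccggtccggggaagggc
Rel: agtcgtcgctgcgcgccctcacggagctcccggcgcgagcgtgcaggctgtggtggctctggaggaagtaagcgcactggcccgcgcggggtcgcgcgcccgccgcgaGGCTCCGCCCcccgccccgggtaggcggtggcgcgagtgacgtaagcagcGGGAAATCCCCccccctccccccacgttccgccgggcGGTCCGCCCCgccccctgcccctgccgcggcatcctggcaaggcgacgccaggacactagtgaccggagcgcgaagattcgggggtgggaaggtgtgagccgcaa
Nfkbia: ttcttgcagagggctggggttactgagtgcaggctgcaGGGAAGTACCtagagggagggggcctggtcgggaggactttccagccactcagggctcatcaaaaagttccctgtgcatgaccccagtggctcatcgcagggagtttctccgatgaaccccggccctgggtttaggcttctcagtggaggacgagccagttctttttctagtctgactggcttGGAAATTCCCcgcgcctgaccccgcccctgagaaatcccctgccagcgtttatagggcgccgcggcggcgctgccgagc

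The loose form was found in 50.8% of the 32851 promoter windows of the table. The narrower kB consensus was found in 8.46% of all windows, and TTCNNNGAA in 8.30%. Of the 7 members with a promoter in the table, 5 held the kB consensus in at least 1 window: Bcl3, Nfkb2, Rel, Nfkbia and Nfkbie. Rela and Nfkbib held none, and Nfkb1, Relb and Nfkbiz were not among the entries. Bcl3 held GGGAAGTCCC, which begins 2 bases after the start. The Nfkb2 window shown held GGGAATTCCC at 39 bases and GGGGCTTTCC at 11 bases before the start, and Rel held GGGAAATCCC at 92 bases before it. At the first Nfkb2 site and at the Rel site a match on the other strand overlaps, shifted by 1 base. Nfkbia held GGGAATTTCC on the opposite strand at 29 bases before the start. Among the 4 windows shown, the STAT form was in that of Nfkb2. The consensus was thus in promoters of members with higher, lower and overlapping knockout values alike, and a match is a description of the sequence, not a bound site.

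Since FPKM is per length, the make-up of the subunit mRNA could be read in each library. Rela made up 54.8%, 59.1% and 60.2% of the FPKM sum of the 5 subunits in knockout replicates 1, 2 and 3, against 58.4%, 58.1% and 55.6% in wild-type replicates 1, 2 and 3. Nfkb1 followed with 23.8% to 27.8% in the knockout and 25.6% to 29.3% in the wild type. The shares of both overlapped between genotypes. Nfkb2 made up 5.88%, 5.54% and 7.79% in the knockout libraries, against 3.34%, 4.19% and 4.18% in the wild-type libraries, and Rel made up 5.997%, 5.98% and 3.96% in the knockout libraries, against 8.83%, 6.93% and 7.35% in the wild-type libraries. Neither of these shares overlapped, and they rest on the same values as the levels above. The ratio of Nfkb2 to Nfkb1 was 0.252 ± 0.0648 in the knockout and 0.142 ± 0.0216 in the wild type, and that of Rel to Rela was 0.0921 ± 0.0232 in the knockout and 0.134 ± 0.0160 in the wild type (SD, n = 3 each).

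**Figure D4:**
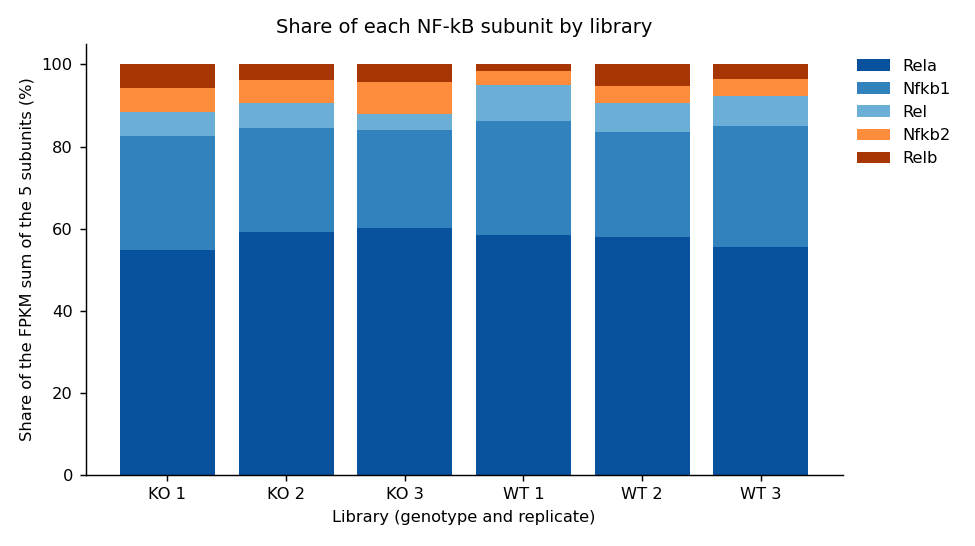
Share of each subunit gene in the FPKM sum of the 5 subunits (y axis, percent, from 0) in each library (x axis, knockout then wild type). Rela and Nfkb1 make up most of every bar, and the share of Nfkb2 is 5.54% to 7.79% in the knockout and 3.34% to 4.19% in the wild type.

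The balance of IkB and subunit mRNA overlapped between the genotypes, with Nfkbiz and Bcl3, which are not classical inhibitors, counted in the IkB sum. The classical inhibitors alone summed to 27.2 ± 2.47 FPKM in the knockout and 26.5 ± 1.14 FPKM in the wild type (SD, n = 3 each), also with overlapping values. The 5 IkB genes summed to 27.8, 34.2 and 32.5 FPKM in knockout replicates 1, 2 and 3, against 31.6, 28.6 and 30.4 FPKM in wild-type replicates 1, 2 and 3. The 5 subunits summed to 21.4, 20.6 and 23.3 FPKM in the knockout libraries, against 19.4, 20.4 and 22.1 FPKM in the wild-type libraries. The ratio of the sums was 1.45 ± 0.187 in the knockout and 1.47 ± 0.139 in the wild type (SD, n = 3 each), with overlapping values. Bcl3 made up 2.92% ± 1.19 of the IkB sum in the knockout and 0.507% ± 0.208 in the wild type (SD, n = 3 each), a small part of that sum in both.

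Other measures moved with the same libraries. The 18 microglia and macrophage markers summed to 89.7, 97.0 and 107 FPKM in knockout replicates 1, 2 and 3, against 59.3, 59.1 and 63.6 FPKM in wild-type replicates 1, 2 and 3. Of these markers, 11 were higher in every knockout library than in any wild-type library and none was lower, beside 7.83% and 8.04% of all genes, with none at 0 in all libraries. Of the 16 that were tested, limma called 2 higher, beside 0.205% of all genes tested. At an unadjusted limma p under 0.05, 10 of the 16 were higher, beside 5.19% of all genes. The sum was highest in knockout replicate 3, as was Bcl3, and its part in the values of Bcl3, Nfkb2 and Rel was not tested. The 16 lymphocyte and neutrophil markers in the files summed to 1.45 to 2.47 FPKM in the knockout and 1.29 to 2.17 FPKM in the wild type, and Cd3e, Cd3g, Cd2, Ms4a1, Mpo and Elane were at 0 in all 6 libraries. Of these markers, 2 were higher and 1 was lower in every knockout library than in any wild-type library, and none passed the filter. Müller glia markers summed to 2207 to 2771 FPKM in the knockout and 2098 to 2232 FPKM in the wild type over 12 genes. Within that sum Apoe, Clu, Vim and Aqp4 were higher in every knockout library and Glul, Kcnj10 and Spc25 lower in every knockout library, and limma called none of the 12. The 11 markers of cornea, ciliary body and optic nerve summed to 24.9 to 76.9 FPKM in the knockout and 16.9 to 29.4 FPKM in the wild type. For 9 pigment epithelium markers the sums were 22.1 to 120 FPKM in the knockout and 26.2 to 45.3 FPKM in the wild type, and for 12 vessel markers 99.8 to 110 FPKM in the knockout and 99.2 to 109 FPKM in the wild type. Knockout replicate 3, which was richest in lens RNA, held the highest Bcl3, Nfkb2 and Rela and the lowest Rel. Without it the log2 change was 0.57 for Bcl3 (limma adjusted p = 0.550) and -0.19 for Rel (limma adjusted p = 0.780), and that of Nfkb2 is given above. With the sexes kept apart, the log2 change was 0.39 within males and 0.86 within females for Bcl3, 0.37 and 0.35 for Nfkb2, and -0.16 and -0.34 for Rel, each with a single library on one side.

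The genes that feed signals to the family were given by a list of 48 receptors, adaptors, kinases and regulators, of which 36 were tested. None was called, 20 had a log2 change above 0 and 16 below, and the median was 0.01. At an unadjusted p under 0.05 there were 3 higher (8.33% of those tested) and 1 lower (2.78%), beside 5.19% and 3.81% of all genes. The 3 were Tnfrsf1a, the main TNF receptor, with a log2 change of 0.68 (limma adjusted p = 0.218), Ltbr, the lymphotoxin beta receptor that feeds the non-canonical branch, with 0.63 (limma adjusted p = 0.229), and Tnip2, an A20-binding inhibitor, with 0.48 (limma adjusted p = 0.239). Tnip2 had 23.9, 24.9 and 20.9 FPKM in knockout replicates 1, 2 and 3, against 14.0, 17.4 and 17.97 FPKM in wild-type replicates 1, 2 and 3. The genotypes did not overlap. The lower one was Tnfaip3, which encodes the inhibitor A20 and was the most abundant gene of either list, with 87.8, 94.0 and 75.9 FPKM in the knockout libraries against 95.1, 106 and 101 FPKM in the wild-type libraries. The next by p was the scaffold gene Card10, with a log2 change of 0.30 (limma adjusted p = 0.562).

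A list of 39 genes known as NF-kB targets held 22 that were tested, 8 of the 39 being on the upstream list too. Both lists were chosen with earlier results of these data known, so their shares beside all genes are a description. Gadd45b, a stress gene that NF-kB and other factors induce, rose in the knockout, the single gene of the list called, beside 0.205% of all genes called higher. Gadd45b had 9.50, 11.6 and 10.7 FPKM in knockout replicates 1, 2 and 3, against 4.14, 4.33 and 4.65 FPKM in wild-type replicates 1, 2 and 3 (log2 change 1.11, SE 0.09, limma adjusted p = 0.00447). With the lens term its log2 change was also 1.11 but it was no longer called (limma adjusted p = 0.0614), and over the 16 alternatives its adjusted p ranged from 0.00324 to 0.0614. At an unadjusted p under 0.05, 9 of the 22 were higher (40.9%) and 1 was lower (4.55%), with a median log2 change of 0.23, beside 5.19%, 3.81% and -0.00174 over all genes. The lower one was Tnfaip3, with a log2 change of -0.23 (limma adjusted p = 0.497). It is on both lists, is the most abundant gene of either and is the lower gene counted in the upstream list too. Icam1, 1 of the 9, passed the filter only through its knockout libraries (0.901 ± 0.267 FPKM in the knockout and 0.138 ± 0.0718 FPKM in the wild type, SD, n = 3 each). Without it, a change made after its values were seen, 8 of 21 were higher and the median was 0.21. The next by p were the lipocalin Lcn2 with a log2 change of 0.99 (limma adjusted p = 0.0589), the AP-1 subunit Junb with 0.57 (limma adjusted p = 0.119), the interferon regulatory factor Irf1 with 0.71 (limma adjusted p = 0.146) and B2m, the light chain of MHC class I, with 0.71 (limma adjusted p = 0.245). The first 2 of these are also induced by STAT3, and Irf1 and B2m by interferon, so the list is not particular to NF-kB. The median was 0.05 with no filter (38 of the 39 genes), 0.07 without wild-type replicate 3, 0.12 without knockout replicate 3 or with the stricter filter, and 0.03 with the lens term.

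The inflammatory targets best known from macrophages were barely measured. Among the 17 targets under the filter, 10 had a mean under 0.1 FPKM over the 6 libraries, among them Tnf at 0.0184 FPKM, Il6 at 0.0243 FPKM, Cxcl2 at 0.0252 FPKM, Nos2 at 0.0543 FPKM and Ccl2 at 0.0700 FPKM. Tnf was listed at 0 in all 3 knockout libraries and in wild-type replicates 1 and 2. Differences in these cytokines were not detectable at this depth.

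The genes most like Bcl3 over the 6 libraries were sought by the root-mean-square difference of log2(FPKM + 1), each value taken relative to the gene's wild-type mean. The 5 nearest were B2m (0.093), Lgals3bp (0.111), Irf1 (0.114), Icam1 (0.125) and Sema3b (0.134). They were picked for sharing the pattern of Bcl3, and Icam1, like Bcl3, passed the filter only through the knockout libraries, so their higher knockout values are a description. Icam1, which encodes a leukocyte adhesion molecule, had 0.626, 0.915 and 1.16 FPKM in knockout replicates 1, 2 and 3, against 0.0698, 0.213 and 0.132 FPKM in wild-type replicates 1, 2 and 3. Like Bcl3, it was highest in knockout replicate 3 and lowest of the knockout in replicate 1. B2m had 16.2, 24.9 and 26.2 FPKM in the knockout libraries, against 12.9, 13.5 and 12.7 FPKM in the wild-type libraries. None of the 5 was called by limma, with adjusted p from 0.146 to 0.389.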

How the data were processed

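Per the submitters' processing notes, reads were processed with TopHat2 2.1.1 and Cuffdiff 2.2.1 on mm10. The authors deposited 1 table of FPKM per library, as the file headers name the unit, with annotation, strand setting and scaling not given in the sources used here. Size factors, the median over genes of a library's FPKM relative to the geometric mean of all 6, were 0.998 to 1.002. Typical levels were thus alike between libraries as deposited. This held also for knockout replicate 3, which had the highest FPKM sum (401874). The 6 tables were joined by symbol, and no 2 libraries held identical values. Knockout and wild type were compared with limma 3.58.1 (R 4.3.3) on log2(FPKM + 1), two-sided, with the trended prior (trend = TRUE) and Benjamini-Hochberg adjustment over the 14176 genes tested. For 3 libraries against 3 an exact permutation test cannot go below 0.1. The test was checked on simulated data. Positions are from GENCODE M21 (GRCm38, the build mm10 names) and promoters from RefSeq (GRCm38.p6). Relative depth is the commonest ratio between libraries among genes of at most 0.3 FPKM, and a step was accepted where all 6 values lay within 0.05 of whole multiples. Python 3.11.15 with pandas 2.3.3, scipy 1.17.1 and matplotlib 3.10.9 did the rest. The members, the gene lists and the rule for named genes (all members, the 5 genes with the smallest p and the most abundant gene of either pathway list, and the 5 genes most like the member with the largest change) were chosen with earlier results of these data known. The kB consensus, Cd3e and the other markers at 0, the scarce cytokines, the Müller glia markers and the overlapping genes were named after values were seen.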

Additional observations from a re-analysis of the deposited data

Results flagged for a closer look

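In Nfkb1 and Nfkbia the knockout libraries lay on opposite sides of the wild type in the sexes read from Xist and Y-linked genes. The log2 change of Nfkb1 was 0.14 within males (knockout replicate 1 against wild-type replicates 1 and 2) and -0.23 within females (knockout replicates 2 and 3 against wild-type replicate 3). That of Nfkbia was -0.048 within males and 0.28 within females. The difference between the sexes was not tested, and each side has a single library of one genotype. A single library often lies outside 2 others without any difference, and the flag needs no more than that in each sex. The share of all genes that would be flagged was not counted, so these members are given as a description.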

How the results depend on the processing

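No family member and no gene of the upstream list was called under any of the 16 alternatives. The directions of Bcl3, Nfkb2, Relb, Rela and Nfkbia (above 0) and of Rel (below 0) held in every alternative that tested them; the stricter filter, a mean of at least 1 FPKM, left out Bcl3 and Relb. Leaving out single libraries gave log2 changes of 0.574 to 0.902 for Bcl3, 0.287 to 0.483 for Nfkb2, 0.054 to 0.372 for Relb, 0.019 to 0.138 for Rela, 0.064 to 0.172 for Nfkbia, -0.317 to -0.191 for Rel, -0.070 to 0.064 for Nfkb1, -0.13 to 0.014 for Nfkbib, -0.161 to 0.133 for Nfkbie and -0.146 to 0.042 for Nfkbiz. With the lens term Nfkb1 was at 0.087, Nfkbia at 0.035 and Nfkbib at 0.00034. Over all genes, 29 were called higher and 4 lower. With a library left out there were 9 to 14 and 2 to 4, with the replicate block 13 and 2, with the sex term 17 and 2 and with the lens term 5 and 2. A single prior variance gave 17 higher, and no filter gave 2 lower. The target list had 1 to 2 genes called higher with a library left out and 0 with the lens term, where Gadd45b had an adjusted p of 0.0614. Its median log2 change was 0.23, and 0.072 to 0.202 with a library left out, 0.32 with a pseudocount of 0.1, 0.055 with no filter, 0.12 with the stricter filter, 0.21 without Icam1 (added after seeing the data) and 0.034 with the lens term. The upstream median was 0.042 with the lens term. The cause of these shifts was not tested; the fits with a term, a block or a library left out have fewer residual degrees of freedom. Same-numbered knockout and wild-type libraries had correlations of their deviations of 0.072, -0.090 and -0.119 for replicates 1, 2 and 3. Knockout replicate 1 correlated best with its own number and knockout replicates 2 and 3 with another. Being weak and taken from means of 3 libraries, these correlations cannot show whether the numbers pair the libraries. With the replicate block Bcl3 had a limma adjusted p of 0.519. Scarce members, above all Bcl3 and Relb, are limited by depth.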
